A study of Mus musculus with 19 samples.

Results

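The 11 libraries described here compare the cerebellum of mice that lost Gnas through Olig1-Cre with that of wild-type mice, out of 19 libraries in the series. All mice were of the strain C57BL/6 and were taken at postnatal day 60. Ctrl 1 to 3 were wild-type libraries. Olig1-Gnas 1 to 8 were libraries of mice in which Gsα, the product of Gnas, was deleted conditionally by Cre recombinase expressed from the Olig1 gene. The labels do not say that each library is a separate mouse, so the p-values measure the spread between these libraries. They also do not say which cells had recombined, what Cre or floxed alleles the wild-type mice carried, or which part of the cerebellum was taken. The libraries were the columns Ctrl 1 to 3 and Olig1-Gnas 1 to 8 of 1 deposited table of FPKM, a read density scaled to transcript length and library size, and 14183 of its 22193 genes held 1 FPKM or more in at least 3 of these 11 columns. Differences below are Olig1-Gnas minus Ctrl in log2(FPKM + 1), given ± SE over n = 3 Ctrl and n = 8 Olig1-Gnas libraries, and adjusted p-values are from limma over the 14183 genes. Genes with an adjusted p below 0.05 are the ones called here.

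Gsα is the G protein subunit that couples hormone and neurotransmitter receptors to adenylyl cyclase, and the cyclic AMP made there activates protein kinase A. Sonic hedgehog relieves the receptor Ptch1's block on Smo, after which Gli transcription factors switch on their targets, and protein kinase A opposes this by promoting the repressor forms of Gli proteins. In the young cerebellum, hedgehog signaling drives the division of granule neuron progenitors, which later leave the cell cycle and become granule neurons. Medulloblastoma of the Sonic hedgehog group arises from these progenitors, and the title of the series names Gsα as a suppressor of such tumors. The question of the comparison is thus how a cerebellum that lost Gsα in cells with Olig1-Cre differed from normal cerebellum.

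In brief, RNA for cell division, hedgehog response, granule progenitors, ribosomal proteins and phagocytes was higher in Olig1-Gnas. Most transcripts of mature granule neurons, Purkinje cells, interneurons and myelin were lower. Among 20 genes of Bergmann glia and astrocytes, 12 were lower and 2 higher. Of 14183 genes tested, 8485 were called (59.8%), 5134 of them higher (36.2%) and 3351 lower (23.6%). Each list count below is to be read against these shares. The median difference over all genes was 0.22, and it was 0.06 under quantile normalization or upper quartile scaling, where 50.6% and 52.0% of the calls were higher against 60.5% in the main test. The defining transcripts of adult cerebellum were present in Ctrl and at a small part of that level in most Olig1-Gnas libraries, although the labels call the tissue of both groups cerebellum. In bulk tissue, fewer cells of a type and less RNA per cell cannot be told apart.

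The deleted gene could be read only in part. Gnas stood at 651, 798 and 0 FPKM in Ctrl 1, 2 and 3 and at 0, 117, 24, 33.3, 52.9, 0, 121 and 0 FPKM in Olig1-Gnas 1 to 8. The difference of -2.67 did not pass an exact two-sided permutation test over 165 arrangements (p = 0.388). A listed 0 in this table can be a failed estimate, and with the 4 zeros left out the difference was -3.63, with a p of 0.0476 that is the smallest 21 arrangements allow. Among the 7 values above 0, those of Olig1-Gnas were all below those of Ctrl. Ctrl 1, Ctrl 2 and Olig1-Gnas 5 to 8 were the more deeply sequenced libraries, judged by the steps of their lowest values, and Ctrl 3 and Olig1-Gnas 1 to 4 held 0.271 to 0.374 of the depth of Ctrl 2. Ddx3y, which lies on the Y chromosome, was at 1 FPKM or more in 2 of 3 Ctrl and 2 of 8 Olig1-Gnas libraries. Olig1-Gnas 6 stood apart: 159 genes were at least 2-fold above and 637 at least 2-fold below every other Olig1-Gnas library, against at most 16 and 108 genes for any of the others. Without it, 9546 genes were called, against 8485 with it. Among the wild-type libraries, Ctrl 3 held 73.2 FPKM of the sperm protamine Prm1, against at most 0.964 FPKM in Ctrl 1 and 2, and 7116 genes were called without it. Ctrl 1 had other values for 5106 of 22193 genes in the second deposited table of the series, not used for Ctrl here. The ratio between the tables had a median of 1.0 over all genes above 0 in both. Most of these did not differ, so that median does not measure how far the others did. Without Ctrl 1, 7022 genes were called.

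**Figure D1:**
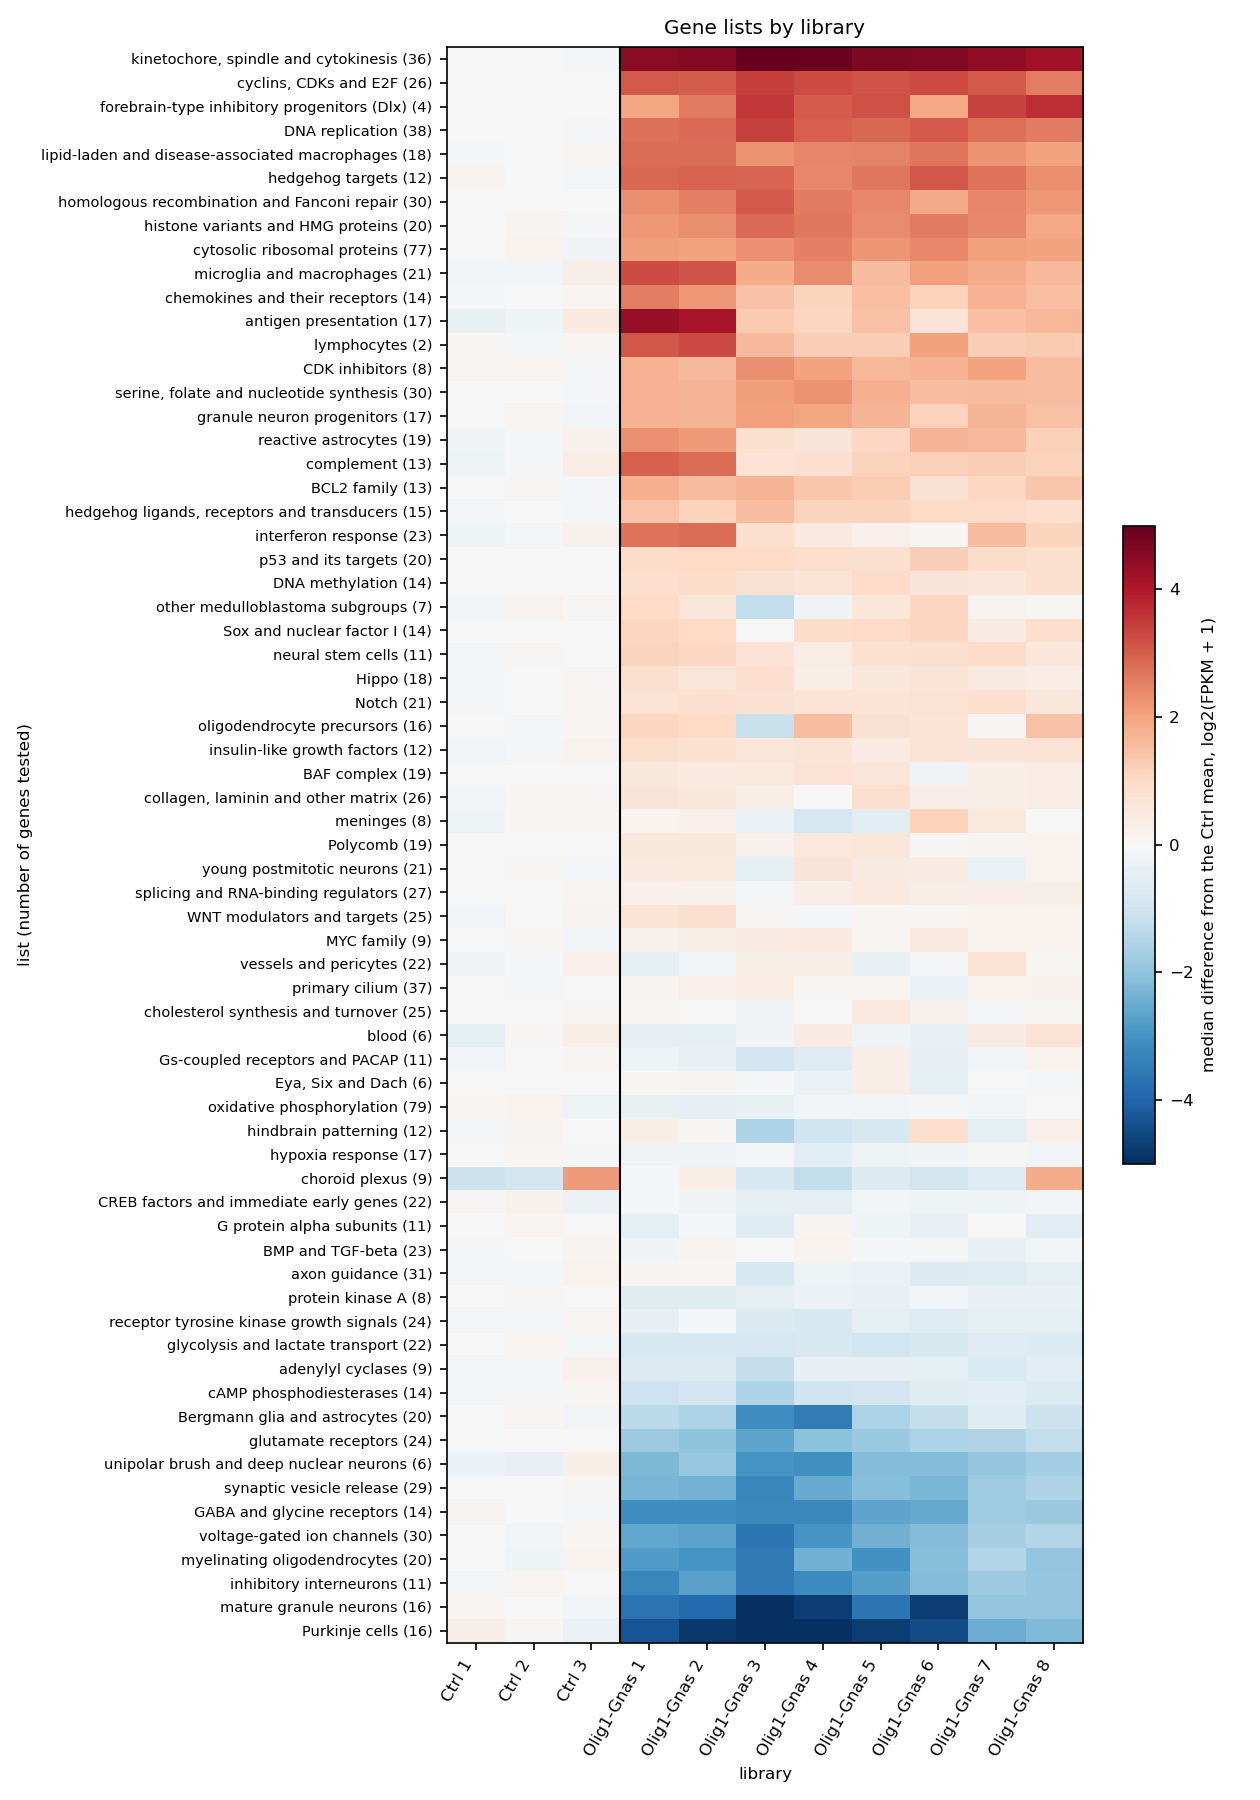
Median difference from the Ctrl mean, in log2(FPKM + 1), of the tested members of 67 gene lists (rows, with the number of genes tested) in each of the 11 libraries (columns). Red is above the Ctrl mean and blue below it. The kinetochore list is the highest in all 8 Olig1-Gnas libraries together, with medians of 4.21 to 5.03, and the Purkinje cell or the mature granule neuron list is the lowest in each of them, with the smallest loss in Olig1-Gnas 7 and 8.

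Genes of cell division were higher in Olig1-Gnas, with 1 exception in the list given first. Of 36 tested genes of the kinetochore, spindle and cytokinesis, 35 were higher and none lower, with a median difference of 4.57, where 36.2% of all genes were higher. Top2a, the topoisomerase that untangles replicated DNA, stood at 0.343, 0.318 and 0.262 FPKM in Ctrl 1, 2 and 3, and 99.4 to 255 FPKM (median 155) in Olig1-Gnas. Mki67, a protein of dividing nuclei used to score proliferation, stood at 0.325, 0.188 and 0.215 FPKM in Ctrl 1, 2 and 3, and 78.7 to 264 FPKM (median 137) in Olig1-Gnas. Every Olig1-Gnas library lay far above every Ctrl library for both genes, with differences of 6.92 ± 0.23 (adjusted p = 1.43e-09) and 6.89 ± 0.31 (adjusted p = 6.98e-09). Birc5, the survivin subunit of the chromosomal passenger complex, stood at 0.294, 0.432 and 0.142 FPKM in Ctrl 1, 2 and 3, and 83.9 to 131 FPKM (median 96.4) in Olig1-Gnas, a difference of 6.30 ± 0.15 (adjusted p = 1.84e-10). The exception of the list was Pttg1, securin, at 36.2, 35.2 and 44.5 FPKM in Ctrl and 94.1, 96, 25.6, 15.5, 115, 104, 39.1 and 31.8 FPKM in Olig1-Gnas 1 to 8. Pttg1 was above all Ctrl libraries in Olig1-Gnas 1, 2, 5 and 6 and below them in 3, 4 and 8 (0.43 ± 0.59, adjusted p = 0.543).

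Promoters of these genes are known to share a pair of elements, the CHR and CCAAT boxes, through which complexes that hold E2F or B-Myb proteins tie transcription to the late cell cycle. RefSeq windows of 300 bases (GRCm38.p6, 250 before to 50 after a start) matched 30 of the 37 genes of the list, in 32 windows. The CHR letters TTTGAA, on either strand, were in 24 of these windows (75%), against 17.9% of all 32851 windows. CCAAT, on either strand, was in 23 (71.9%) against 37.4%, and both were in 21 (65.6%) against 6.95%. Genes of DNA replication, all of which rose, had the CHR letters in 12.1% of their 33 windows and CCAAT in 57.6%. Cyclins, their kinases and E2F factors, the list of Cdk1, had the CHR letters in 27.3% of 22 windows and both elements in 22.7%. The GLI letters GACCACCCA were in none of 10 windows of hedgehog targets, which matched 7 of the 12 genes, and in 0.253% of all windows. At that share a match in so few windows is improbable, so their absence says nothing about these targets. The E-box letters CAGCTG, which basic helix-loop-helix factors such as Atoh1 bind, were in 5 of 15 windows (33.3%) of granule progenitor genes, 8 of 29 (27.6%) of genes of synaptic vesicle release and 5 of 22 (22.7%) of cyclins, their kinases and E2F factors, against 16.3% of all windows. Shown are the 200 bases before the start of 3 genes of these lists, chosen because their differences were large and their windows hold both elements, 5′ to 3′ on the gene's strand, with CHR and CCAAT letters of either strand in capitals. They lie at chr11:99024190-99024389 (minus strand), chr7:135716380-135716579 (minus) and chr10:69352913-69353112 (minus), all in GRCm38.p6. A match is a description of the letters, and binding was not measured.
Top2a: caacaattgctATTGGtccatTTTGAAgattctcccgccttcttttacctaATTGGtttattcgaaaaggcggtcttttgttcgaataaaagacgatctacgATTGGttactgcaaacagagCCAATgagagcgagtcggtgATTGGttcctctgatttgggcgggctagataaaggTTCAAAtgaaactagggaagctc
Mki67: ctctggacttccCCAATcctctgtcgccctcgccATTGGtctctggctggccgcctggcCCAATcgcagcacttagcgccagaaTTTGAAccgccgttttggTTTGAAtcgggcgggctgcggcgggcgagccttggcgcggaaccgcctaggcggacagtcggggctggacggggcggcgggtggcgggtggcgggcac
Cdk1: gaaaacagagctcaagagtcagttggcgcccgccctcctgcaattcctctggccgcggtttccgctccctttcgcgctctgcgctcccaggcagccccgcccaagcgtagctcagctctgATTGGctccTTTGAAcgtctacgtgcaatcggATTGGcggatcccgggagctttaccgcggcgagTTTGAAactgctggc
The Top2a stretch holds 5 CCAAT and 2 CHR matches, that of Mki67 3 and 2, and that of Cdk1 2 and 2.

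Of 26 cyclins, cyclin-dependent kinases and E2F factors, 23 were higher and none lower, with a median of 3.11. Ccnb1 and Ccna2, the cyclins of mitosis and of late S phase, differed by 6.05 ± 0.22 and 5.98 ± 0.16, and their partner kinase Cdk1 by 5.79 ± 0.21. Cdk1 stood at 0.309, 0.257 and 0.228 FPKM in Ctrl 1, 2 and 3, and 53.6 to 99 FPKM (median 62.3) in Olig1-Gnas. All 38 genes of DNA replication were higher, with a median of 2.88. Mcm6, a subunit of the replicative helicase, rose from 0.54, 0.618 and 1.41 FPKM in Ctrl to 110.1 to 207 FPKM, a difference of 6.30 ± 0.20 (adjusted p = 1.08e-09). Mcm3, of the same helicase, differed by 5.03 ± 0.21 and Chaf1b, which deposits histones on new DNA, by 4.83 ± 0.21. Of 30 genes of homologous recombination and the Fanconi pathway, which repair broken and cross-linked DNA, 29 were higher and none lower (median 2.54), led by Rad51ap1 (4.52 ± 0.22), Fancd2 (4.03 ± 0.24) and Brca1 (3.74 ± 0.22). In none of these 6 genes did the groups overlap, and over all genes tested groups without overlap made up 32.2% higher and 21.5% lower.

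Brakes on the cell cycle rose beside it. Of 8 inhibitors of cyclin-dependent kinases 7 were higher, with a median of 1.82. Cdkn2c, p18 of the INK4 family, stood at 2.32, 1.72 and 1.57 FPKM in Ctrl 1, 2 and 3, and 36.7 to 79.2 FPKM (median 49) in Olig1-Gnas, a difference of 4.12 ± 0.21 (adjusted p = 2.12e-08). Cdkn2a, the locus of p16 and p19Arf, was higher too but uneven, at 19, 16.9, 142, 136, 24, 12.8, 111 and 20.4 FPKM in Olig1-Gnas 1 to 8 and at most 0.327 FPKM in Ctrl (5.05 ± 0.79, adjusted p = 0.000265). Olig1-Gnas 3, 4 and 7 held 111 FPKM of Cdkn2a or more and the other 5 at most 24.0 FPKM. Its neighbor Cdkn2b, p15, chosen after its values were seen, was also highest in those 3 libraries, at 10.5, 8.32 and 8.07 FPKM, against 2.14 to 3.96 FPKM in the others and at most 0.829 FPKM in Ctrl. Trp53 itself stood at 9.15, 8.84 and 9.04 FPKM in Ctrl 1, 2 and 3, and 36.9 to 104 FPKM (median 81.6) in Olig1-Gnas, lowest in Olig1-Gnas 6 (2.93 ± 0.25, adjusted p = 1.70e-06).

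Of 20 genes of p53 and its targets, 15 were higher and 2 lower, with a median of 0.91. Eda2r, a receptor of the tumor necrosis factor family, went from 0.0819, 0.125 and 0.089 FPKM in Ctrl to 14.4 to 34.6 FPKM (4.34 ± 0.24, adjusted p = 3.84e-08). Gtse1, a microtubule protein that restrains p53 and is itself made in G2, differed by 4.08 ± 0.17. Perp, a membrane protein, and Zmat3, a zinc finger protein, were the 2 lower genes, at -1.36 ± 0.32 and -0.45 ± 0.16. Without Olig1-Gnas 6, 4 genes of the list were lower, and 1 without any single Ctrl library. Of 13 tested members of the BCL2 family that governs cell death, 9 were higher and none lower, led by the pro-death genes Bok (3.67 ± 0.26), Hrk (2.94 ± 0.24) and Bid (2.32 ± 0.33).

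Among 12 hedgehog targets 10 were higher and none lower, with a median of 2.55. Gli1, the transcription factor that hedgehog signaling both uses and induces, stood at 8.51, 7.26 and 7.2 FPKM in Ctrl 1, 2 and 3, and 60.6 to 122 FPKM (median 86.2) in Olig1-Gnas. Ptch1, the receptor that damps the pathway, stood at 51.7, 46.9 and 48.1 FPKM in Ctrl 1, 2 and 3, and 92.2 to 343 FPKM (median 151) in Olig1-Gnas, highest in Olig1-Gnas 6. Gli1 differed by 3.33 ± 0.18 (adjusted p = 3.12e-08) and Ptch1 by 1.65 ± 0.32 (adjusted p = 0.000777), and neither overlapped between groups. The growth targets moved further. Mycn, the MYC protein of granule progenitors, stood at 2.05, 2.19 and 1.44 FPKM in Ctrl 1, 2 and 3, and 50.3 to 141 FPKM (median 111) in Olig1-Gnas (5.20 ± 0.26, adjusted p = 1.64e-08). Ccnd2, cyclin D2, stood at 1.46, 0 and 3.03 FPKM in Ctrl 1, 2 and 3, and 78.5 to 252 FPKM (median 167) in Olig1-Gnas (6.23 ± 0.42, adjusted p = 2.22e-07), and Ccnd1, cyclin D1, differed by 4.42 ± 0.21. The listed 0 of Ccnd2 in Ctrl 2 can be a failed estimate. Sfrp1, a secreted WNT antagonist, stood at 3.04, 1.95 and 6.77 FPKM in Ctrl 1, 2 and 3, and 113 to 415 FPKM (median 182) in Olig1-Gnas, highest in Olig1-Gnas 3 (5.36 ± 0.39, adjusted p = 4.16e-07). The targets that did not pass were Igf2, at 151, 109, 5.22, 6.74, 6.0, 14.5, 19.3 and 44.4 FPKM in Olig1-Gnas 1 to 8 against 23.3, 38.2 and 59.1 FPKM in Ctrl, and Nkx2-2. Igf2 was above Ctrl in Olig1-Gnas 1 and 2 only (-0.74 ± 1.03, adjusted p = 0.558).

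Of 15 tested hedgehog ligands, receptors and transducers 8 were higher and 4 lower. Smo, the transducer, stood at 7.2, 7.7 and 9.25 FPKM in Ctrl 1, 2 and 3, and 39 to 76.2 FPKM (median 50.9) in Olig1-Gnas (2.57 ± 0.19, adjusted p = 3.30e-07). Sufu, which holds Gli proteins back, differed by 1.88 ± 0.25, Gli2, the main activator, by 2.78 ± 0.25, and Evc, a ciliary partner of Smo, by 2.14 ± 0.21. Shh, the ligand that Purkinje cells make, went the other way, at 2.79, 2.65 and 1.17 FPKM in Ctrl and at 0 to 0.556 FPKM in all 8 knockout libraries (-1.41 ± 0.21, adjusted p = 0.00014). Cdon, a coreceptor, and Disp2, related to the transporter that releases ligand, were lower (-2.48 ± 0.34 and -2.54 ± 0.45). Boc, another coreceptor, and Hhat, which attaches a lipid to the ligand, were not called. Gli3, chiefly a repressor, was also not called and split among the knockouts, with 5.39 FPKM in Olig1-Gnas 1, 4.25 FPKM in Olig1-Gnas 2 and no more than 0.99 FPKM elsewhere, against 1.49, 1.39 and 1.27 FPKM in Ctrl. Genes of the primary cilium, the organelle where the pathway signals, were close to the background: 11 of 37 were higher and 6 lower, with a median of 0.06 that was -0.09 under quantile normalization. The called ones included Stil, of centriole duplication (2.14 ± 0.30), Ift140, of ciliary transport (1.12 ± 0.21), and Kif17, a motor that neurons also use (-1.75 ± 0.27).

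**Figure D2:**
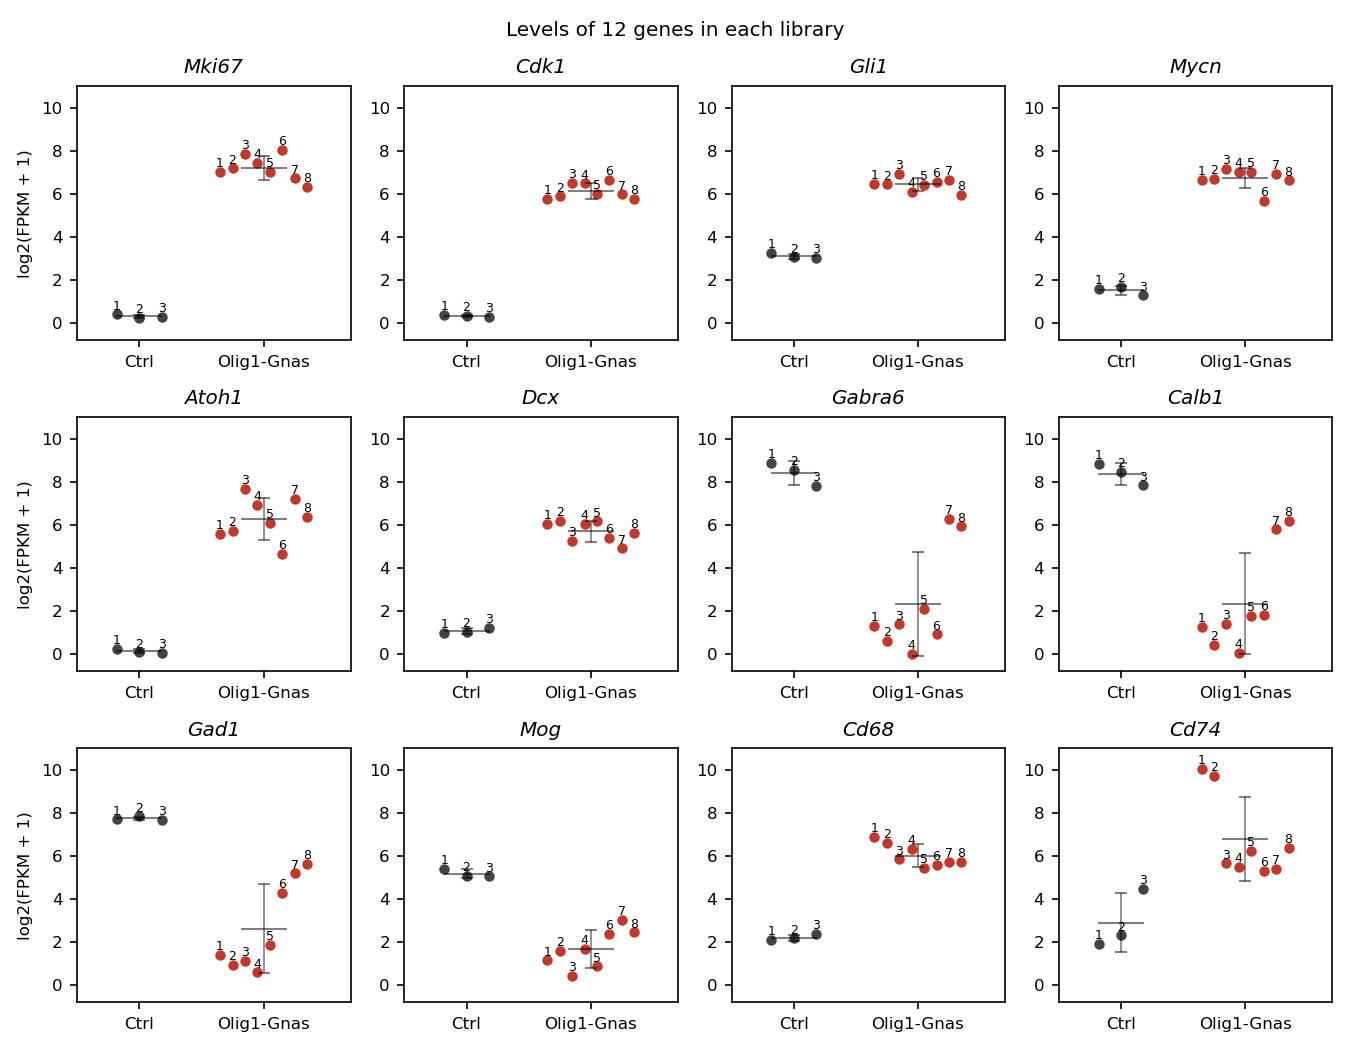
Level of 12 genes in log2(FPKM + 1) in each Ctrl (grey) and Olig1-Gnas (red) library; numbers are the library numbers, and the bar with whiskers is the mean ± SD of the group (n = 3 and n = 8). Mki67, Cdk1, Gli1, Mycn, Atoh1, Dcx and Cd68 are higher in all 8 Olig1-Gnas libraries than in any Ctrl library, whereas Gabra6, Calb1 and Gad1 are lower in all 8 and, among these, highest in 7 and 8.

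Of 17 genes that mark granule neuron progenitors 10 were higher and 1 lower, with a median of 1.69. Atoh1, the factor that defines the lineage, stood at 0.198, 0.0603 and 0.0536 FPKM in Ctrl and 46.8, 51.2, 201, 121, 67.4, 23.8, 145 and 81.6 FPKM in Olig1-Gnas 1 to 8 (6.13 ± 0.52, adjusted p = 1.91e-06). Olig1-Gnas 3, 7 and 4 were the highest and 6 the lowest. Nhlh1, Insm1 and Igfbpl1, genes of newly born neurons, rose most, by 6.82 ± 0.30, 6.74 ± 0.28 and 6.68 ± 0.31. Insm1, a zinc finger factor of neurogenesis, went from at most 0.834 FPKM in Ctrl to 111 to 309 FPKM. The lineage markers that adult granule neurons keep did not follow: Zic1 (0.32 ± 0.20, adjusted p = 0.186) and Pax6 (-0.22 ± 0.44, adjusted p = 0.689) were not called.

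Young neurons moved in both directions, 10 of 21 genes higher and 6 lower, with a median of 0.27 that was -0.01 under quantile normalization. Dcx, a microtubule protein of migrating neurons, stood at 0.975, 1.05 and 1.31 FPKM in Ctrl 1, 2 and 3, and 28.9 to 72.2 FPKM (median 56.5) in Olig1-Gnas (4.63 ± 0.27, adjusted p = 4.92e-08). Marcksl1, of the growing cell cortex, and Nnat, neuronatin, rose by 4.34 ± 0.15 and 3.68 ± 0.31. Neurod2, a factor of differentiated granule neurons, Mapt, the axonal tau protein, and Stmn2, of growing axons, fell by 2.97, 1.72 and 1.44. Neurod2 was lowest in Olig1-Gnas 3 and 6, with 0.384 and 0.377 FPKM, and ranged from 6.06 to 16.6 FPKM in the others. Among genes of axon guidance 9 of 31 were higher and 12 lower. Dcc, the netrin receptor, stood at 0.325, 0.581 and 0.849 FPKM in Ctrl 1, 2 and 3, and 28.1 to 59.6 FPKM (median 40.3) in Olig1-Gnas, and with a difference of 4.78 ± 0.21 (adjusted p = 5.69e-09) it moved furthest of the list. Slit1 (2.64 ± 0.58) and Robo2 (1.81 ± 0.34), a ligand and a receptor of repulsion, were higher, whereas Slit3 (-2.18 ± 0.30), Unc5c (-2.26 ± 0.45) and Unc5b (-2.18 ± 0.51) were lower.

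Genes known from inhibitory progenitors of the forebrain formed a short list. Of 17 in the list 4 passed the filter on low values, and those could pass only through Olig1-Gnas libraries. Dlx6, of the distal-less family, is listed at 0 in all Ctrl libraries and stood at 7.0, 14.3, 52.5, 16.5, 15.1, 5.17, 26.2 and 21.8 FPKM in Olig1-Gnas 1 to 8. It was detected in 8 of 8 knockout libraries and was highest in Olig1-Gnas 3. Dlx5, its neighbor, stood at 0.973 to 8.77 FPKM. Dlx6os1 stood at 0 in Ctrl and 0.258 to 3.07 FPKM in Olig1-Gnas. It overlaps Dlx6 in antisense, and whether the counting used strand is not given. Dlx1 and Dlx2 did not pass the filter.

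The arm of cyclic AMP that starts at Gsα had members on both sides, as had all genes tested. Over all genes 36.2% were higher and 23.6% lower. Of 11 tested α subunits 4 were higher and 5 lower. Gnal, the Gs-like subunit of olfactory and striatal neurons, stood at 45.1, 39.6 and 53.6 FPKM in Ctrl 1, 2 and 3, and 0 to 10.5 FPKM (median 4.99) in Olig1-Gnas (-3.18 ± 0.65, adjusted p = 0.00129), and Gnai1 (-2.77 ± 0.49) and Gnao1 (-1.42 ± 0.17), which inhibit the cyclase or act in neurons, were lower as well. The other inhibitory subunits Gnai3 (2.03 ± 0.17) and Gnai2 (1.28 ± 0.15) were higher, as was Gna12 of another class (1.23 ± 0.19). Of 9 adenylyl cyclases 2 were higher and 4 lower. Adcy1, the calcium-stimulated cyclase of granule neurons, stood at 296, 242 and 250.1 FPKM in Ctrl and 9.31, 10.3, 2.92, 3.39, 8.76, 7.43, 50.9 and 39.7 FPKM in Olig1-Gnas 1 to 8 (-4.49 ± 0.74, adjusted p = 0.000375). Olig1-Gnas 7 and 8 kept the most. Adcy9 (-2.24 ± 0.21) and Adcy8 (-2.08 ± 0.29) fell, and Adcy7 (1.25 ± 0.36) and Adcy6 (0.70 ± 0.11) rose. The summed level of the cyclases was 318 to 367 FPKM in Ctrl and 47.4 to 102 FPKM in Olig1-Gnas. Adcy1 made up most of each Ctrl sum, so the lower sum is chiefly that of this 1 gene.

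Of 8 genes of protein kinase A 3 were higher and 4 lower. Its regulatory subunit Prkar1b, a form of neurons, fell by 2.67 and Prkar1a, the ubiquitous form, by 0.54, while Prkar2b was higher (1.12 ± 0.24). The catalytic subunit Prkacb was lower (-0.78 ± 0.18), and Pkig, an inhibitor of the catalytic subunits, was higher (0.65 ± 0.14). Of 14 phosphodiesterases that break down cyclic AMP 4 were higher and 8 lower. Pde1c stood at 7.04, 11.6 and 22.2 FPKM in Ctrl 1, 2 and 3, and 43 to 90.5 FPKM (median 69.9) in Olig1-Gnas (2.40 ± 0.29, adjusted p = 2.66e-05), and Pde7a (1.73 ± 0.15) and Pde3a (1.52 ± 0.37) also rose, whereas Pde10a (-2.81 ± 0.37), Pde4a (-1.92 ± 0.37) and Pde4b (-1.70 ± 0.23) fell. The summed level of phosphodiesterases overlapped between the groups, at 152 to 192 FPKM in Ctrl and 160.1 to 206 FPKM in Olig1-Gnas. Of 11 tested receptors and ligands upstream of Gsα 2 were higher and 5 lower. Without Ctrl 1, 2 or 3, 0, 1 and 1 were higher and 2, 1 and 1 lower. Crhr1, the receptor for corticotropin-releasing hormone, stood at 32.4, 35.3 and 30.4 FPKM in Ctrl and at most 0.764 FPKM in Olig1-Gnas 1 to 6, with 9.56 and 11.5 FPKM in 7 and 8. CREB factors, their coactivators and immediate early genes were 3 of 22 higher and 7 lower, 4 lower without Ctrl 1 or without Ctrl 2. The activity-induced genes Arc (-2.07 ± 0.29), Egr4 (-2.03 ± 0.35) and Egr1 (-1.65 ± 0.41) fell, and Egr2 (1.67 ± 0.23), Atf1 (0.92 ± 0.22) and Creb1 (0.71 ± 0.20) rose. Creb1 was lowest in Olig1-Gnas 6, at 11.4 FPKM against 12.4, 12.2 and 12.5 FPKM in Ctrl.

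Transcripts of mature neurons were lower. Of 16 genes of mature granule neurons 15 were lower and none higher, with a median of -3.60, where 23.6% of all genes were lower. Gabra6, the GABA receptor subunit particular to granule cells, stood at 468, 370.4 and 224 FPKM in Ctrl and 1.51, 0.542, 1.62, 0, 3.27, 0.894, 75.7 and 59.8 FPKM in Olig1-Gnas 1 to 8 (-6.09 ± 1.37, adjusted p = 0.0033). Olig1-Gnas 7 and 8 kept a part of it and the other 6 held at most 3.27 FPKM. Cbln3, a synaptic organizer that granule cells secrete, and Slc17a7, which loads glutamate into vesicles, differed by -6.03 ± 1.43 (adjusted p = 0.00442) and -5.50 ± 1.08 (adjusted p = 0.00131), with the same 2 libraries highest. The member that did not pass was Nrgn, neurogranin, at 26.3 FPKM in Olig1-Gnas 6 and at most 2.17 FPKM in the others.

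Of 16 Purkinje cell genes 14 were lower and none higher, with a median of -4.14 (1 higher without Olig1-Gnas 4). Calb1, the calcium buffer calbindin, stood at 453, 353 and 226 FPKM in Ctrl and 1.43, 0.357, 1.64, 0.0476, 2.4, 2.55, 54.2 and 71.5 FPKM in Olig1-Gnas 1 to 8 (-6.03 ± 1.33, adjusted p = 0.00282). Car8, a regulator of calcium release, differed by -5.41 ± 1.09 (adjusted p = 0.00154) and Pcp2, Purkinje cell protein 2, by -5.14 ± 1.72 (adjusted p = 0.0261). Pcp2 is listed at 0 in Olig1-Gnas 2 and 4 and stood at 159 and 207 FPKM in 7 and 8. The other neurons with inhibitory transmission fell alike: 9 of 11 interneuron genes were lower and none higher (median -2.83). Gad1, which makes GABA, stood at 205, 226 and 204 FPKM in Ctrl and 1.63, 0.898, 1.2, 0.503, 2.65, 18.4, 35.5 and 48.3 FPKM in Olig1-Gnas 1 to 8 (-5.10 ± 1.16, adjusted p = 0.00328), and its vesicle transporter Slc32a1 and the second synthase Gad2 differed by -4.65 ± 0.90 and -3.92 ± 0.76. Olig1-Gnas 6 joined 7 and 8 for these 3 genes, at 7.89 FPKM of Gad2 against 6.16 and 6.21 FPKM, although it was low in Gabra6. Of 6 tested genes of unipolar brush and deep nuclear neurons 4 were lower and 1 higher, the latter Spp1 (3.13 ± 0.53), osteopontin, which macrophages make as well. Without Ctrl 3 or without Olig1-Gnas 3, 2 were higher.

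Genes of the synapse were lower too. Of 29 genes of vesicle release 26 were lower and 1 higher (median -2.38), with Syt2 (-4.25 ± 0.73), Syt1 (-3.97 ± 0.81) and Syt4 (-3.92 ± 0.97), calcium sensors of release, at the bottom. The 1 higher gene was Stx1a, a syntaxin of the release machinery, at 1.24, 1.91 and 2.33 FPKM in Ctrl 1, 2 and 3, and 10.4 to 17.7 FPKM (median 14.6) in Olig1-Gnas (2.45 ± 0.20, adjusted p = 9.67e-07). Glutamate receptors were 19 of 24 lower and none higher. Grm4, a presynaptic receptor of granule cells, stood at 115, 162 and 126 FPKM in Ctrl 1, 2 and 3, and 0.275 to 20.5 FPKM (median 3.96) in Olig1-Gnas (-4.84 ± 0.82, adjusted p = 0.000423). Of 14 GABA and glycine receptor subunits 13 were lower and none higher, among them Gabra6 and Gabrd (-4.98 ± 1.08). Of 30 voltage-gated channels 24 were lower, among them Cacna1g (-3.91 ± 0.65) and Kcnj9 (-3.70 ± 0.58), and 2 were higher, Kcnq5 (1.36 ± 0.42) and Kcnh7 (1.34 ± 0.40), 1 of them without Ctrl 1 or without Ctrl 2. Summed over its members, vesicle release stood at 5499.8 to 5603 FPKM in Ctrl and at 524 to 1739 FPKM in Olig1-Gnas, lowest in Olig1-Gnas 3 and highest in 8. Without Olig1-Gnas 7 and 8, 8275 genes were called over the whole table.

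**Figure D3:**
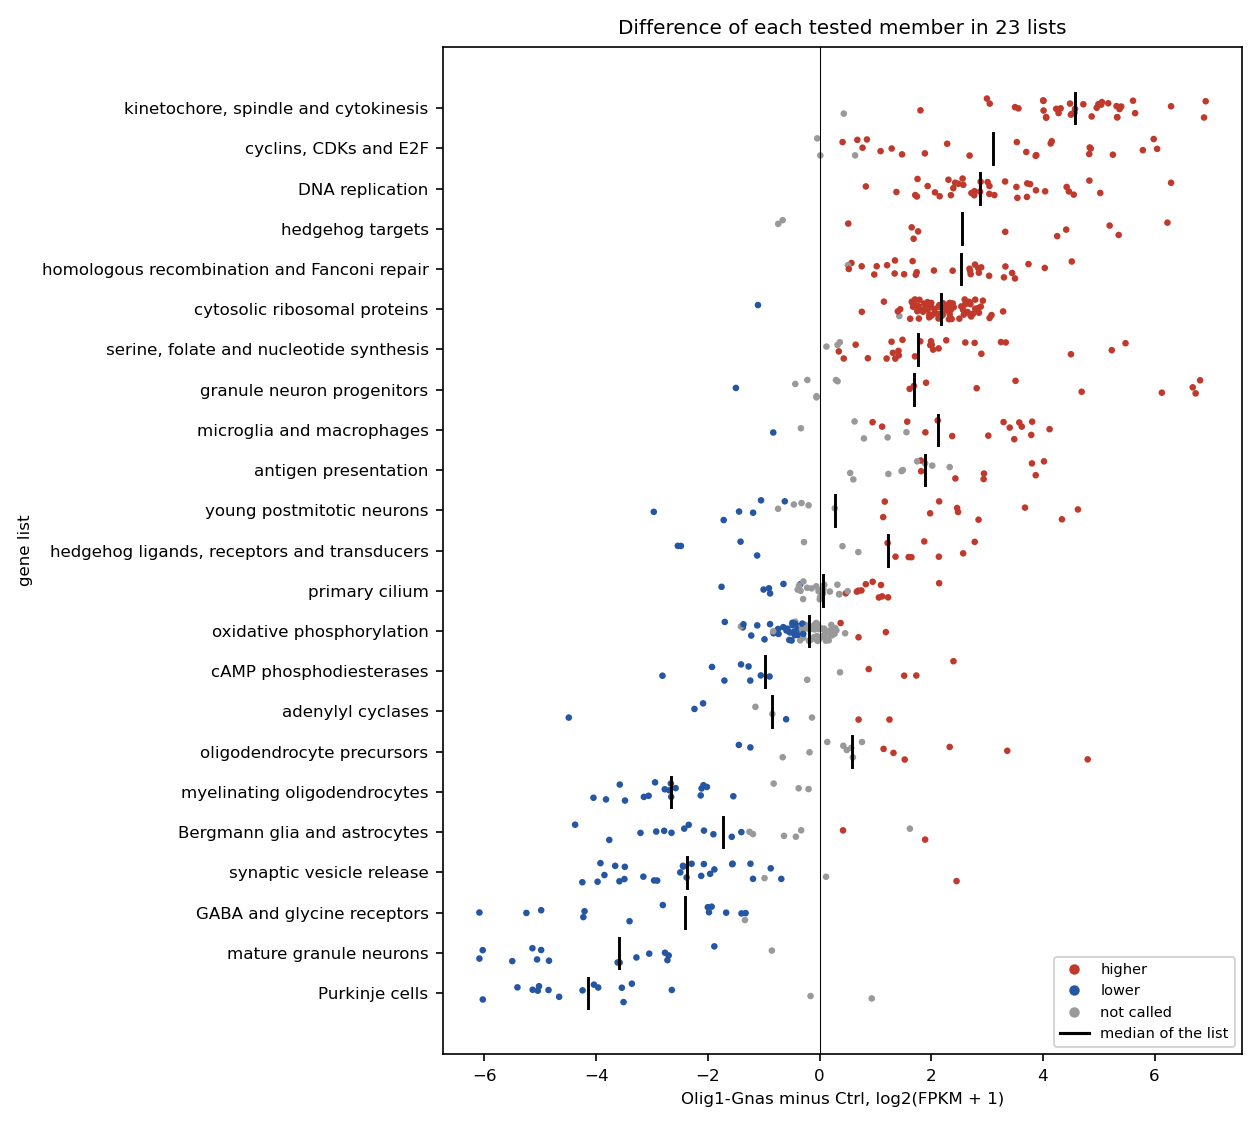
Difference between Olig1-Gnas and Ctrl in log2(FPKM + 1) of each tested member of 23 lists (points: red called higher, blue called lower, grey not called) with the list's median (black line). Members of the division and ribosomal lists lie almost all to the right, those of the neuronal lists to the left, and those of the hedgehog transducers, young neurons and cyclic AMP lists on both sides.

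Glial lists differed in direction. Of 20 genes of Bergmann glia and astrocytes 2 were higher and 12 lower, with a median of -1.74, and 7 were lower without Ctrl 2 (1 was higher without Ctrl 1 or 2). Dao, an oxidase of D-amino acids, differed by -4.38 ± 0.89 (adjusted p = 0.00135), Aldoc, the aldolase of astrocytes and of some Purkinje cells, by -3.76 ± 1.12 (adjusted p = 0.0143), and Gdf10, a secreted factor of Bergmann glia, by -3.21 ± 0.72 (adjusted p = 0.00261). Fabp7, the fatty acid carrier of immature radial glia, stood at 81.9, 71.7 and 61.4 FPKM in Ctrl 1, 2 and 3, and 145 to 579 FPKM (median 248) in Olig1-Gnas and was higher (1.89 ± 0.37, adjusted p = 0.000983). The water channel Aqp4 was not called and divided the knockouts, at 9.39 and 4.71 FPKM in Olig1-Gnas 3 and 4, at 59.9 to 73.0 FPKM in the other 6 and at 83.5, 88.1 and 105 FPKM in Ctrl. Reactive astrocyte genes were 11 of 19 higher and none lower (median 1.54). Lcn2, lipocalin 2, stood at most at 0.805 FPKM in Ctrl and at 234, 143, 12.5, 40.5, 172, 367, 45.8 and 57.2 FPKM in Olig1-Gnas 1 to 8 (5.87 ± 0.88, adjusted p = 0.00023). Gfap, the filament of astrocytes, spanned 55.1 to 471 FPKM against 47.9, 61.1 and 54.4 FPKM in Ctrl, and Olig1-Gnas 4 lay within the Ctrl range (1.83 ± 0.60, adjusted p = 0.0206).

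Genes of myelin fell: 17 of 20 were lower and none higher (median -2.66). Mog, of the outer sheath, stood at 41.2, 32.8 and 32 FPKM in Ctrl and 1.22, 1.99, 0.333, 2.19, 0.829, 4.15, 7.14 and 4.48 FPKM in Olig1-Gnas 1 to 8 (-3.48 ± 0.48, adjusted p = 7.04e-05). Mobp (-4.05 ± 1.18) and Mag (-3.58 ± 0.62), also of myelin, were like Mog lower in all 8 libraries than in any Ctrl library. Precursors of the lineage did not share this. Of 16 precursor genes 6 were higher and 2 lower (median 0.58), 1 lower without any single Ctrl library. Pdgfra, the growth factor receptor that marks them, stood at 5.17, 5.41 and 6.19 FPKM in Ctrl 1, 2 and 3, and 43.1 to 95.4 FPKM (median 72) in Olig1-Gnas (3.36 ± 0.22, adjusted p = 1.28e-07) and Olig2, their transcription factor, at 6.87, 6.52 and 7.52 FPKM in Ctrl 1, 2 and 3, and 22 to 59 FPKM (median 44.3) in Olig1-Gnas (2.33 ± 0.27, adjusted p = 1.81e-05). C1ql1, a complement-related protein of these precursors and of some neurons, rose from 4.09, 5.31 and 5.43 FPKM to 95.2 to 216 FPKM. Tnr and Ptprz1, matrix-linked proteins of precursors, fell by 1.44 and 1.24. Olig1, from which Cre was expressed, was not called, at 26.7, 25.4 and 30.7 FPKM in Ctrl and 37.4, 28.4, 11.2, 86.2, 57.2, 36.5, 35.8 and 66.8 FPKM in Olig1-Gnas 1 to 8 (0.49 ± 0.47, adjusted p = 0.383). Olig1 was below Ctrl in Olig1-Gnas 3 and above it in 1, 4 to 8, and the median of the precursor list was -1.11 in Olig1-Gnas 3 and 0.09 to 1.56 in the others. Of 11 stem cell genes 7 were higher and none lower, led by Cd24a, of immature neurons (5.98 ± 0.27), and Nes, nestin (3.44 ± 0.26).

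Microglia and macrophage genes were 15 of 21 higher and 1 lower (median 2.12), none lower without Ctrl 1 or without Ctrl 3. Cd68, of phagocyte lysosomes, stood at 3.25, 3.49 and 4.15 FPKM in Ctrl 1, 2 and 3, and 42.2 to 117 FPKM (median 54.1) in Olig1-Gnas (3.81 ± 0.29, adjusted p = 5.11e-07), and C1qb, of the complement starter that microglia make, at 14.4, 14.7 and 21.8 FPKM in Ctrl 1, 2 and 3, and 156 to 595 FPKM (median 199) in Olig1-Gnas (3.79 ± 0.41, adjusted p = 1.31e-05). P2ry12, a receptor of resting microglia, did not pass and stood at 4.11, 3.64 and 5.31 FPKM in Ctrl and 0, 8.49, 1.94, 2.97, 5.46, 3.73, 3.3 and 5.82 FPKM in Olig1-Gnas 1 to 8 (-0.33 ± 0.53, adjusted p = 0.61). The listed 0 of P2ry12 in Olig1-Gnas 1 can be a failed estimate, and it lowers this difference. Tmem119, also of microglia, did not pass and was above all Ctrl libraries by far only in Olig1-Gnas 1 and 2, at 28.1 and 18.9 FPKM (0.63 ± 0.59, adjusted p = 0.375). Siglech, of resting microglia, was lower (-0.83 ± 0.25), and Fcrls, of microglia, was higher (4.12 ± 0.23). Of 18 genes of lipid-laden and disease-associated macrophages 14 were higher and none lower. Lyz2, lysozyme, stood at 9.0, 13.5 and 17.5 FPKM in Ctrl 1, 2 and 3, and 291 to 883 FPKM (median 589) in Olig1-Gnas (5.27 ± 0.31, adjusted p = 5.60e-08), and Gpnmb, a glycoprotein of foam cells, rose by 5.13 ± 0.30.

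Genes of antigen presentation divided the knockouts, with far higher levels in Olig1-Gnas 1 and 2 than in the other 6. Cd74, the invariant chain that escorts class II molecules, stood at 2.8, 3.98 and 20.9 FPKM in Ctrl and 1057, 842, 49, 43.4, 74.1, 38.2, 41.3 and 80.7 FPKM in Olig1-Gnas 1 to 8 (3.87 ± 1.18, adjusted p = 0.0167). Of H2-Aa, a class II chain, Olig1-Gnas 1 and 2 held 788 and 766 FPKM, and the others 34.2 to 70.4 FPKM, against 2.07, 3.72 and 13.3 FPKM in Ctrl (4.02 ± 1.12, adjusted p = 0.0107). Over the 17 tested genes of antigen presentation 8 were higher and none lower, 2 of them without Ctrl 1 and 4 without Ctrl 2, and the list's median in Olig1-Gnas 1 and 2 was 4.35 and 4.13 against 0.64 to 1.64 in the others. Of 13 complement genes 6 were higher and 1 lower (none without any single Ctrl library and 2 without Olig1-Gnas 7), with C4b, a class III component, at 90.1, 75.2, 11.1, 26, 22, 33.2, 44.8 and 19.7 FPKM in Olig1-Gnas 1 to 8 against 1.94, 2.3 and 4.21 FPKM in Ctrl. Interferon-response genes were 7 of 23 higher and 1 lower, where 36.2% of all genes were higher and 23.6% lower. The number higher was 12 without Olig1-Gnas 5, 11 without Olig1-Gnas 6 and 4 without Ctrl 1. The 1 lower gene was not called without any single Ctrl library, Olig1-Gnas 3 or 5. Their median was 2.71 and 2.80 in Olig1-Gnas 1 and 2 and 0.08 to 1.60 in the others. Of 14 chemokines and receptors 10 were higher and 2 lower, 6 of them higher without Ctrl 2. Ccl5, which draws lymphocytes, ranged from 1.57 to 8.57 FPKM in 6 knockout libraries, with 45.7 and 51.5 FPKM in the pair. Ccl2, which draws monocytes, was instead highest in Olig1-Gnas 6, at 34.9 FPKM, and Cx3cl1, the chemokine of neurons, fell by 2.71.

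Lymphocyte genes were near the limit: 2 of 16 passed the filter, and those could pass only through Olig1-Gnas libraries. Cd4 was called (2.15 ± 0.27, adjusted p = 3.47e-05), and macrophages also express it, whereas Cd79a, of B cells, was not (1.61 ± 0.78, adjusted p = 0.0935). Igj, the joining chain of secreted antibodies, chosen after its values were seen, reached 375 and 356 FPKM in this pair against no more than 5.8 FPKM in the rest and 6.61 FPKM in Ctrl 3. The summed level of the lymphocyte list was 64.1 and 70.2 FPKM in Olig1-Gnas 1 and 2, 5.22 to 9.42 FPKM in the others and at most 2.86 FPKM in Ctrl. Olig1-Gnas 1 and 2 were also the pair closest to each other over all genes, with a median absolute difference of 0.13 in log2, within the 0.10 to 0.21 of pairs of Ctrl libraries. Both were among the shallower libraries, and the part of depth in the immune pattern was not tested.

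Of 22 vascular genes 3 were higher and 3 lower. Without Olig1-Gnas 7, 1 was higher and 6 lower, without Ctrl 3 1 was higher and 1 lower, and without Ctrl 1, Ctrl 2, Olig1-Gnas 4 or Olig1-Gnas 5 1 was higher. Pecam1, of endothelium, stood at 4.82, 5.18 and 8.34 FPKM in Ctrl and 5.33, 7.48, 8.79, 7.68, 4.36, 8.06, 11.2 and 7.14 FPKM in Olig1-Gnas 1 to 8 (0.25 ± 0.25, adjusted p = 0.397). Angpt2, which loosens vessels, was higher (1.42 ± 0.31), and Plvap, of fenestrated vessels, Flt1, a receptor for vascular growth factor, and Pdgfrb, of pericytes, were lower (-2.01 ± 0.33, -1.02 ± 0.29 and -0.77 ± 0.26). Matrix genes were 10 of 26 higher and 5 lower, and 2 were lower without Ctrl 1 and 3 without Ctrl 3. Lama5, a laminin chain, stood at 1.18, 1.1 and 2.27 FPKM in Ctrl and 27.6, 27.8, 108, 238, 68.2, 51.2, 83.9 and 65.8 FPKM in Olig1-Gnas 1 to 8 (4.78 ± 0.55, adjusted p = 2.33e-05), highest in Olig1-Gnas 4. Of 9 tested choroid plexus genes 1 was higher and none lower, none higher without Ctrl 1, 2 higher without Ctrl 3 and 1 lower without Olig1-Gnas 8. Ttr, its main secreted protein, was at 1195 FPKM in Ctrl 3, 2317 FPKM in Olig1-Gnas 8 and 130.4 FPKM in Olig1-Gnas 2, and at most 7.08 FPKM in the other 8 libraries. Meningeal genes were 1 of 8 higher and 3 lower. None was lower without any single Ctrl library, none higher without Ctrl 1 and 2 higher without Olig1-Gnas 4. The lower ones included Ptgds, prostaglandin D synthase, at 1595, 2248 and 1309 FPKM in Ctrl and 275, 254, 5.83, 5.7, 16.8, 115, 411 and 268 FPKM in Olig1-Gnas 1 to 8 (-4.54 ± 1.45, adjusted p = 0.0211). The 6 tested blood genes did not pass, and 1 was higher without Olig1-Gnas 6.

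Genes of ribosomes and of nucleotide synthesis were higher. Of 77 tested cytosolic ribosomal proteins 75 were higher and 1 lower, with a median of 2.17, and their summed level was 7802 to 10409 FPKM in Ctrl and 39102 to 56724 FPKM in Olig1-Gnas. Rplp0, of the ribosomal stalk, stood at 124, 134 and 97.7 FPKM in Ctrl 1, 2 and 3, and 921 to 1702 FPKM (median 1115) in Olig1-Gnas (3.29 ± 0.18, adjusted p = 3.55e-08). Ribosomal proteins have many processed pseudogenes, and how reads shared with them were assigned is not given. Of 30 genes of serine, folate and nucleotide synthesis 27 were higher and none lower (median 1.76), led by Rrm2, of the reductase that makes deoxynucleotides (5.48 ± 0.27), Tk1, thymidine kinase (5.23 ± 0.19), and Slc29a1, a nucleoside carrier that stood at 19.4, 21.4 and 20.5 FPKM in Ctrl 1, 2 and 3, and 371 to 643 FPKM (median 488) in Olig1-Gnas (4.50 ± 0.15, adjusted p = 1.38e-09).

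Glycolysis had members on both sides, with 4 of 22 genes higher and 13 lower, and 2 higher without Ctrl 1, Ctrl 3, Olig1-Gnas 1 or Olig1-Gnas 2. Eno2, the neuronal enolase, stood at 439, 459 and 382 FPKM in Ctrl and 4.71, 4.59, 2.78, 1.25, 5.69, 45.7, 84.9 and 82.1 FPKM in Olig1-Gnas 1 to 8 (-5.09 ± 1.20, adjusted p = 0.00422), and Pfkp (-2.72 ± 0.48) and Hk1 (-2.54 ± 0.39) fell. Hk2, the hexokinase of many tumors and of granule progenitors, stood at 4.64, 4.27 and 4.55 FPKM in Ctrl 1, 2 and 3, and 33.9 to 79.2 FPKM (median 49.8) in Olig1-Gnas (3.29 ± 0.21, adjusted p = 1.41e-07), and Ldha, which makes lactate, rose by 1.03 ± 0.23. Oxidative phosphorylation was near its Ctrl level, with 3 of 79 genes higher and 28 lower and a median of -0.18, against 0.22 over all genes. The number lower was 12 without Ctrl 1, 11 without Ctrl 2 and 51 under quantile normalization. Cholesterol genes were 5 of 25 higher and 5 lower. Without any single Ctrl library 2 were higher and 2 lower, without Olig1-Gnas 6 8 were higher, and without any of Olig1-Gnas 1, 2, 3, 4, 7 or 8 2 or 3 were lower. Abca1, which exports cholesterol, and Apoe, its carrier, were higher (1.12 ± 0.35 and 1.01 ± 0.33). Of 17 hypoxia genes 5 were higher and 7 lower, and 3 were higher without any single Ctrl library or without Olig1-Gnas 7. Car9, of acid balance (-1.97 ± 0.34), and Bnip3, of mitochondrial turnover (-1.61 ± 0.24), fell and Plod2, of collagen processing, rose (1.96 ± 0.25).

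Chromatin complexes had higher and lower subunits. Of 19 Polycomb genes 9 were higher and 6 lower. Ezh2, the methyltransferase, stood at 5.07, 4.54 and 5.62 FPKM in Ctrl 1, 2 and 3, and 15.2 to 172 FPKM (median 98.3) in Olig1-Gnas, with the lowest value in Olig1-Gnas 6 (3.79 ± 0.55, adjusted p = 0.000139). Among the chromodomain proteins Cbx2 was higher (2.99 ± 0.22), and Cbx7 (-2.26 ± 0.49) and Cbx6 (-1.99 ± 0.22) were lower. The BAF remodeler, with 9 of 19 genes higher and 4 lower, has subunits that are known to be exchanged as neurons differentiate. Actl6a, the progenitor form of an actin-related subunit, stood at 10.2, 9.45 and 7.33 FPKM in Ctrl 1, 2 and 3, and 47.1 to 90.0 FPKM (median 60.9) in Olig1-Gnas (2.66 ± 0.18, adjusted p = 2.33e-07), and its neuronal counterpart Actl6b stood at 40.7, 45.5 and 39.7 FPKM in Ctrl 1, 2 and 3, and 8.06 to 33.2 FPKM (median 22.9) in Olig1-Gnas (-1.06 ± 0.34, adjusted p = 0.0182). Dpf3 (-2.54 ± 0.46) and Smarcd3 (-1.11 ± 0.43), also of differentiated cells, were lower. Dpf1 and Ss18l1, also neuronal subunits, were not called (-0.34 ± 0.25 and -0.12 ± 0.14), and 2 genes of the complex were lower without Ctrl 1 or without Ctrl 2. Of 14 genes of DNA methylation 10 were higher and none lower (1 lower without Olig1-Gnas 6), led by Uhrf1, which guides the maintenance methyltransferase to new DNA, at 0.266, 0.274 and 0.262 FPKM in Ctrl 1, 2 and 3, and 59.3 to 125 FPKM (median 82.3) in Olig1-Gnas (6.02 ± 0.20, adjusted p = 1.25e-09). Of 20 histone variants and HMG proteins 19 were higher and none lower (median 2.33), Hmgb2 by 5.70 ± 0.26. RNA-binding regulators of splicing were mixed, 9 of 27 higher and 5 lower. Ptbp1, which holds back neuronal splicing, stood at 16.7, 17.2 and 17.8 FPKM in Ctrl 1, 2 and 3, and 124 to 196 FPKM (median 152) in Olig1-Gnas (3.10 ± 0.14, adjusted p = 7.36e-09), and Rbfox1, which promotes it, at 77.6, 61.6 and 64.1 FPKM in Ctrl 1, 2 and 3, and 7.2 to 22.2 FPKM (median 14.5) in Olig1-Gnas (-2.26 ± 0.35, adjusted p = 0.000187).

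Other signaling pathways had members on both sides, as had all genes tested, with 36.2% higher and 23.6% lower. For WNT, 7 of 25 genes were higher and 5 lower, with the feedback inhibitor Nkd1 at 2.91, 3.97 and 5.69 FPKM in Ctrl 1, 2 and 3, and 32.4 to 95.7 FPKM (median 51.4) in Olig1-Gnas (3.41 ± 0.34, adjusted p = 5.64e-06) and the receptor Fzd2 at 3.37 ± 0.39, against a fall of the ligand Wnt7a (-3.17 ± 0.50). Axin2, the usual readout of the pathway, chosen after its values were seen, was not called (0.21 ± 0.16, adjusted p = 0.278). Notch genes were 12 of 21 higher and 3 lower, 5 lower without Olig1-Gnas 6. Mfng, a glycosyltransferase that modifies the receptor, stood at 0.733, 1.21 and 1.68 FPKM in Ctrl 1, 2 and 3, and 14.1 to 34.8 FPKM (median 20.8) in Olig1-Gnas (3.35 ± 0.27, adjusted p = 8.77e-07), and the ligands Dll3 (2.95 ± 0.33) and Jag1 (2.25 ± 0.25) rose while Jag2 fell (-1.29 ± 0.31). For BMP and TGF-beta, 10 of 23 were higher and 7 lower, with Id1 (1.84 ± 0.23) and Tgfbr1 (1.77 ± 0.31) up and Id4 (-2.67 ± 0.60), Bmp6 (-1.85 ± 0.40) and Smad9 (-1.80 ± 0.33) down. Bmp5, not called, reached 85 FPKM in Olig1-Gnas 5, 70.0 FPKM in Olig1-Gnas 6 and no more than 3.68 FPKM elsewhere in the knockouts, against 13.5, 4.4 and 7.09 FPKM in Ctrl.

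Of 18 Hippo genes 9 were higher and 2 lower. Tead2, a DNA-binding partner of Yap, stood at 2.38, 3.11 and 2.43 FPKM in Ctrl 1, 2 and 3, and 55.7 to 162 FPKM (median 98) in Olig1-Gnas (4.77 ± 0.26, adjusted p = 3.43e-08), whereas Yap1 itself, chosen after its values were seen, was not called (-0.14 ± 0.32, adjusted p = 0.733). Of 9 genes of the MYC network 4 were higher and none lower. Myc stood at 0.613, 0.829 and 0.968 FPKM in Ctrl 1, 2 and 3, and 15.8 to 32.7 FPKM (median 22.2) in Olig1-Gnas (3.66 ± 0.21, adjusted p = 4.62e-08), Mycl1 differed by 4.29 ± 0.32 and Mxd3, a partner protein made by dividing cells, by 5.07 ± 0.22. Receptor tyrosine kinases and their ligands were 7 of 24 higher and 11 lower, 7 lower without Ctrl 3. Cxcr4, a receptor that granule progenitors use to stay at the surface, stood at 3.9, 5.51 and 1.88 FPKM in Ctrl 1, 2 and 3, and 71.6 to 173 FPKM (median 113) in Olig1-Gnas (4.65 ± 0.26, adjusted p = 3.82e-08), and Pdgfa, the ligand of Pdgfra, differed by 2.31 ± 0.29. Kit (-2.84 ± 0.36), Ret (-2.40 ± 0.29) and Fgf1 (-2.35 ± 0.56) fell. Insulin-like growth factor genes were 6 of 12 higher and 1 lower (2 without Olig1-Gnas 6). The higher ones included Irs1, a docking protein of the receptor (2.62 ± 0.18), and Igfbp3 (1.61 ± 0.35).

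Factors that pattern the hindbrain varied, with 4 of 12 tested genes higher and 5 lower, 3 lower without Ctrl 2 or without Ctrl 3. En2, of the mid-hindbrain, stood at 52.5, 62.3 and 45.8 FPKM in Ctrl 1, 2 and 3, and 13.5 to 32.6 FPKM (median 19.7) in Olig1-Gnas (-1.32 ± 0.23, adjusted p = 0.000372) and Pax2, of interneuron precursors, at 3.18, 4.54 and 4.51 FPKM in Ctrl and at most 0.945 FPKM in Olig1-Gnas. Otx2, of posterior granule progenitors, stood at 4.37, 15.6 and 14.6 FPKM in Ctrl and 55.9, 51.9, 13.9, 39.1, 46.2, 43.1, 17.6 and 39.4 FPKM in Olig1-Gnas 1 to 8 (1.69 ± 0.46, adjusted p = 0.00759). Olig1-Gnas 3 lay within the Ctrl range of Otx2 and 7 just above it. Otx1 was at most 0.114 FPKM in Ctrl, 3.39 to 8.04 FPKM in 7 knockout libraries and highest in Olig1-Gnas 5, at 36.8 FPKM (2.98 ± 0.51, adjusted p = 0.000369). Of 14 Sox and nuclear factor I genes 7 were higher and 1 lower (2 without Olig1-Gnas 1, 5 or 6). Sox11, of immature neurons, stood at 0.67, 0.763 and 0.638 FPKM in Ctrl 1, 2 and 3, and 35.9 to 63 FPKM (median 53.4) in Olig1-Gnas (4.95 ± 0.16, adjusted p = 1.38e-09), with Sox4 (4.36 ± 0.17) and Nfib (2.73 ± 0.13) higher as well. Of 6 tested genes of the Eya, Dach and sine oculis families 2 were higher and 2 lower, with Eya4 at 1.48 ± 0.26 and Eya2 at -1.75 ± 0.26, and 1 in each direction without Ctrl 1 or without Ctrl 2, and 1 lower without Ctrl 3. Of 7 tested markers of other medulloblastoma subgroups 3 were higher and 3 lower, 1 higher without Ctrl 1.

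By size alone, the 10 largest rises included 3 short RNA genes (Mir1905, Mir5136 and Snora5c), whose FPKM are unstable because a few fragments count for much, and 6 of the 10 largest falls were microRNA genes. Mir1905 is listed at 0 in all 3 Ctrl libraries and at 1218 to 2351 FPKM in Olig1-Gnas, for a row that spans 9000 bases, and no fold is given against listed zeros. The other rises were Top2a, Mki67, Nhlh1, Insm1, Igfbpl1, Cdca3, of mitotic entry (6.50 ± 0.22), and the unnamed gene 2610109H07Rik (6.53 ± 0.30). The other falls were Gabra6, Cbln3, Calb1 and Gng13, a G protein γ subunit of cerebellar neurons (-5.74 ± 1.52).

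The 8 knockout libraries were not alike, and genes that divide them were picked after their values were seen. Dazl, an RNA-binding protein of germ cells, stood at 0.413, 0.298, 277, 16.1, 0.412, 2.63, 216 and 0.248 FPKM in Olig1-Gnas 1 to 8 and at most 0.249 FPKM in Ctrl. It was high in Olig1-Gnas 3, 7 and, less so, 4, the 3 libraries that were also highest in Cdkn2a. Krt12, a keratin of cornea, stood at 17.2, 21.8, 116, 7.07, 0.189, 0.239, 66.1 and 5.1 FPKM, highest in 3 and 7. Foxr2, a forkhead gene on the X chromosome that is nearly silent in normal tissue, reached 134 FPKM in Olig1-Gnas 4 and at most 2.05 FPKM in the other 7. Alx4, a homeobox gene, stood at 2.65, 2.47, 73.7, 61, 32.4, 3.21, 38.5 and 35.2 FPKM and Gm13691, of a family of near-identical copies, at 4.08, 4.4, 111, 81.6, 109, 6.07, 118 and 117 FPKM, so that both were high in Olig1-Gnas 3, 4, 5, 7 and 8 and far lower, though above every Ctrl library, in 1, 2 and 6. In Ctrl they were at 1.02, 0.933 and 0.931 and 2.2, 2.21 and 2.23 FPKM. Reads shared between copies such as Gm13691 and Gm13698 may be split between them, and the 2 rows hold nearly the same values. S100a8 and S100a9, of neutrophils, were highest in Olig1-Gnas 6, at 100.5 and 80.8 FPKM against at most 5.39 and 7.48 FPKM in the others.

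**Figure D4:**
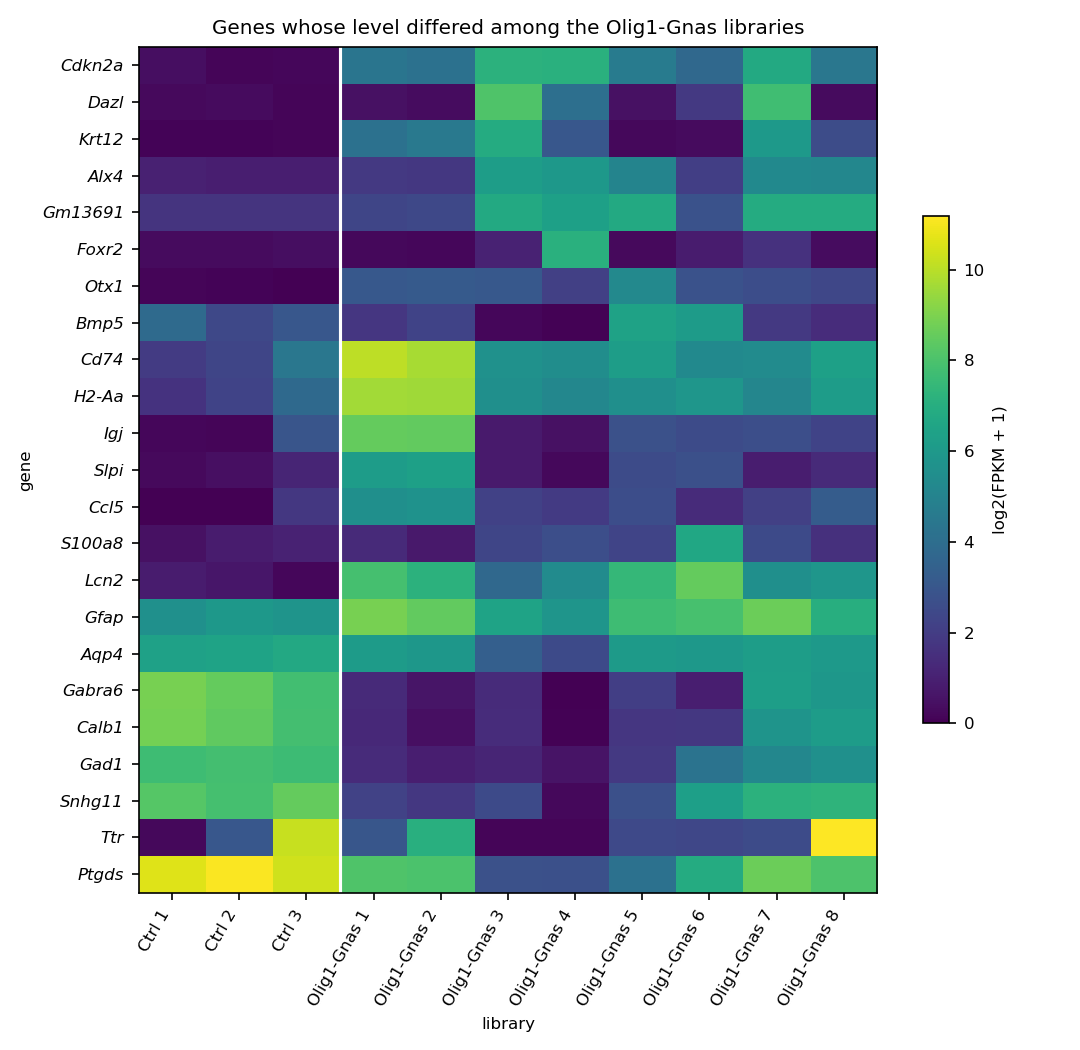
Level in log2(FPKM + 1) (color) of 23 genes, picked after their values were seen or named elsewhere in the text, in the 11 libraries. Cdkn2a and Dazl are high in Olig1-Gnas 3, 4 and 7, Cd74, H2-Aa and Igj in 1 and 2, Foxr2 in 4, and Gabra6 and Calb1 in 7 and 8 among the knockouts.

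Some libraries departed from the others along whole chromosomes. Over 7533 genes at 5 FPKM or more in all 11 libraries, the genes of each chromosome were set against the median of their group, here in log2(FPKM). In Olig1-Gnas 4 the 261 genes of chromosome 19 had a median of 0.45 and 87.4% of them were above 0, and the 379 genes of chromosome 6 had a median of -0.36 with 9.50% above 0. In Olig1-Gnas 1 the 374 genes of chromosome 17 had a median of 0.19, and in Olig1-Gnas 2 the 265 genes of chromosome 12 had a median of 0.17. The other 156 values of Olig1-Gnas libraries lay between -0.10 and 0.09. In Olig1-Gnas 4 the shift was even along chromosome 19, with medians of 0.44, 0.45 and 0.49 in its first, middle and last parts of 87 genes, and along chromosome 6, with -0.37, -0.35 and -0.37. DNA was not sequenced, so the copy number behind these values was not tested.

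**Figure D5:**
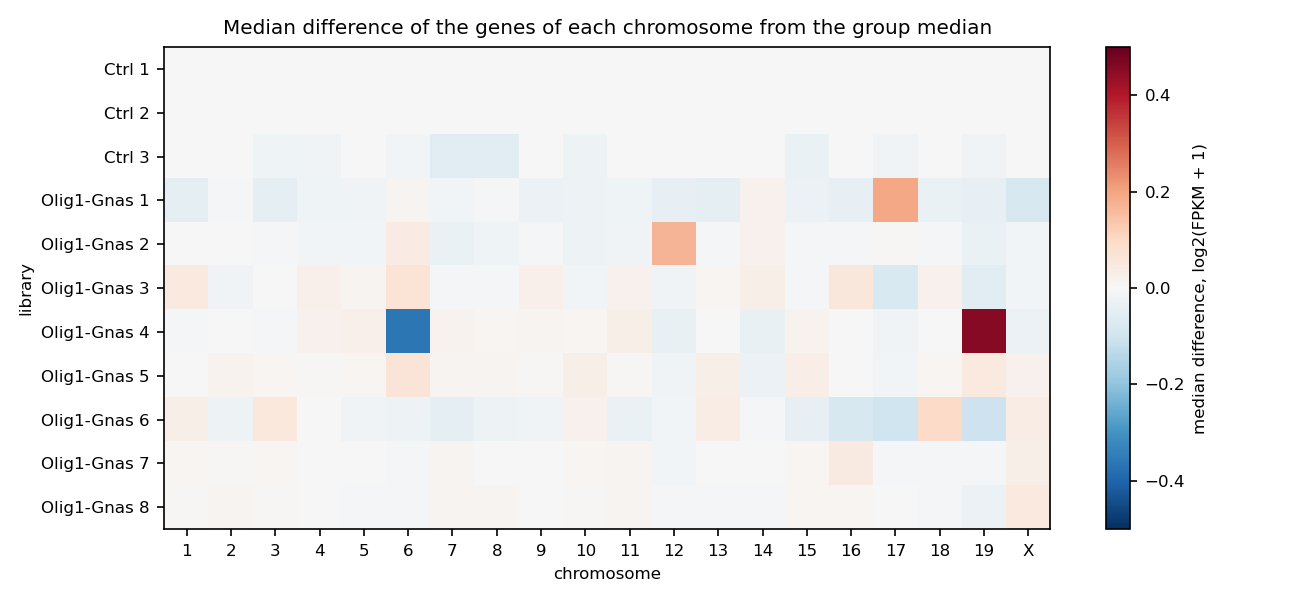
Median difference from the group median, in log2(FPKM), of the genes of each chromosome (columns) in each library (rows). The color label names log2(FPKM + 1), but no 1 was added for these values. Chromosomes 19 and 6 in Olig1-Gnas 4, at 0.45 and -0.36, stand out, followed by chromosome 17 in Olig1-Gnas 1 and chromosome 12 in Olig1-Gnas 2.

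Against the most similar samples of the series, the 8 hGFAP-Gnas libraries of mice that lost Gnas through hGFAP-Cre at the same age, few genes differed. These libraries stand in another deposited table, in which Ctrl 2 and 3 hold the same values as here. Of 14386 genes tested directly, 59 were called (0.41%), 21 higher in Olig1-Gnas (0.146%) and 38 lower (0.264%). Dlx6 stood at 5.17 to 52.5 FPKM in Olig1-Gnas and 0 to 2.71 FPKM in hGFAP-Gnas (3.46 ± 0.39, adjusted p = 0.000605). Gdpd3, a phosphodiesterase of lysophospholipids, stood at 90.2 to 169.7 and 1.63 to 62.6 FPKM (4.46 ± 0.58, adjusted p = 0.00268), and in Ctrl at 27.1, 20.9 and 9.48 FPKM. Gpat2, a gene of germ cells, was higher in Olig1-Gnas by 2.79 ± 0.32 (adjusted p = 0.000605), and Xlr3b and Xlr3c, near-identical X-linked genes, by 2.42 and 2.39. In the other direction Gdf10 stood at 1.19 to 27 FPKM in Olig1-Gnas and 39.5 to 115 FPKM in hGFAP-Gnas (-2.42 ± 0.46, adjusted p = 0.0264). Dmrtb1, of the testis, Krt10, a skin keratin, and Cxcl5, a chemokine for neutrophils, differed by -2.63, -2.52 and -1.88.

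Prm1, the sperm protamine, had the largest difference, at 0 to 0.720 FPKM in Olig1-Gnas and 48.4 to 199 FPKM in hGFAP-Gnas (-6.38 ± 0.25, adjusted p = 9.71e-11). In Ctrl it stood at 0.38, 0.964 and 73.2 FPKM, so that Ctrl 3 lay within the hGFAP-Gnas range and Ctrl 1 and 2 did not. The labels name Ctrl 3 wild-type like the others, and whether that library is what its label says was not tested. Prm1 did not pass the filter in the comparison with Ctrl, and the origin of these reads was not tested. Ddx3y was present in 7 of 8 hGFAP-Gnas and 2 of 8 Olig1-Gnas libraries, and with a term for it 3 genes were called between the knockouts, Prm1, Dlx6 and Gpat2. Leaving out 1 library gave 11 to 104 calls, with 11 without hGFAP-Gnas 8 and 104 without hGFAP-Gnas 3. It gave 23, 25 and 33 without Olig1-Gnas 2, 4 and 5, and 35, 34 and 25 without hGFAP-Gnas 2, 4 and 7.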

How the data were processed

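RNA of cerebellum was sequenced from a TruSeq RNA kit on a HiSeq2000, per the labels and the series' design text. The authors deposited FPKM per gene, made with TopHat and Cufflinks on mm9, per the submitters' processing notes, and versions, strandedness and the treatment of multiply mapped reads are not given in the sources used here. From the FPKM, log2(FPKM + 1) was computed for genes at 1 FPKM or more in at least 3 of 11 libraries, and the groups were compared with limma 3.58.1 (R 4.3.3; moderation with trend and robust), all adjusted p-values being Benjamini-Hochberg over all genes tested. Gnas was tested by exact permutation. Totals of reads are not in the files, and FPKM carries no counting interval, so relative depth came from the ratios of the lowest values. On simulated data 15.1%, 52.6% and 87.6% of genes changed 1.5-, 2- and 4-fold were recovered among 14183 genes. At most 200 genes were changed per run, none of them of low mean level, whereas 59.8% of genes were called here. These percentages are thus not the recovery of the comparison itself.

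The libraries, gene lists, tests and printed genes were chosen with earlier results of these data known. The text names Gnas, up to 3 called genes per direction with the largest difference in each of 67 lists, the 10 largest per direction over all genes, the 10 most variable among the knockouts, 5 per direction between the knockouts, and a set of marker genes. The 10 most variable were 9 short RNA genes and Hpca, all with listed zeros, so they are not described. Members named because they did not pass, and other genes outside this rule, were chosen after their values were seen. Alternatives were another offset, other filters and scalings, terms for depth class and Ddx3y, and leaving out libraries. Those without Olig1-Gnas 6 to 8, those on numbers 1 to 3 without a block, and the chromosome and promoter summaries were added after seeing the data. Some genes that the rule names are not reported here.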

Additional observations from a re-analysis of the deposited data

Results flagged for a closer look

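In 20 of 245 named genes 1 of the 8 Olig1-Gnas libraries lay apart from the others, by a gap to its neighbor of more than 0.526 of the whole range in log2(FPKM + 1), and chance gives about 1 in 20. Some of these genes, such as Foxr2, S100a8 and S100a9, were picked because 1 library stood apart, so the 2 shares cannot be compared. Of these values 13 were from Olig1-Gnas 6. That library was lowest in Mycn (50.3 FPKM), Creb1 (11.4), Ezh2 (15.2), Rrm2 (34.6), Plod2 (11.2), Boc (12.6), Fzd2 (6.66), Gpat2 (1.30) and 2610109H07Rik (54.5), and highest in Ccl2 (34.9), Nrgn (26.3), S100a8 (100.5) and S100a9 (80.8). Olig1-Gnas 3 was highest in Pde7a (47.6 FPKM) and Tk1 (80.4) and lowest in Ptprz1 (9.80) and Stmn2 (50.9). Olig1-Gnas 5 was highest in Otx1 (36.8 FPKM), Olig1-Gnas 4 in Foxr2 (134), and Olig1-Gnas 2 was lowest in C1ql1 (95.2).

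Of the named genes 11 were called between the 2 knockouts by limma. Most were named because they differed there, so their number is not a finding, and 8 of the 11 lost the call with the Ddx3y term and 6 with the replicate block. In log2, Olig1-Gnas minus hGFAP-Gnas was 4.46 for Gdpd3, 3.46 for Dlx6, 2.79 for Gpat2, 2.42 for Xlr3b, 2.39 for Xlr3c and 1.15 for Dlx6os1. It was -6.38 for Prm1, -2.63 for Dmrtb1, -2.52 for Krt10, -2.42 for Gdf10 and -1.88 for Cxcl5.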

How the results depend on the processing

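Between Olig1-Gnas and Ctrl, the number of genes called stayed within 1.5 times 8485 in every alternative but 1: the shallower libraries alone, with 1 Ctrl library assumed to vary like the others, gave 5141, of which 1633 were lower. With 1 library left out it was 6971 to 9546. Of 6299 values of named genes 6108 kept direction and call, 161 lost the call, 30 gained it and none changed direction. Gnas differed by -3.63 with zeros as missing. Its difference depended on which Ctrl library was left out, at -1.16, -1.01 and -5.83 without Ctrl 1, 2 and 3. None of these 3 passed the permutation test (p = 0.822, 0.822 and 0.0889). The comparison of the knockouts was less stable. It called 3 genes with the Ddx3y term (2 higher, 1 lower), 26 without Olig1-Gnas 7 and 8 and hGFAP-Gnas 1, 2 and 7 (10 and 16), and 23 lower with an offset of 0.1. With 1 library left out it called 11 to 104, 9 to 41 higher and 2 to 63 lower. The causes were not tested.

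Replicate numbers are shared only as names. With the replicate block on numbers 1 to 3, 8391 genes were called, and 9243 without it, and same-number deviations correlated at -0.18, -0.14 and 0.05. Between the knockouts the block gave 25 (10 higher, 15 lower), with correlations of -0.17 to 0.28. Depth limits low genes most in Ctrl 3 and Olig1-Gnas 1 to 4.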
